A study of Mus musculus with 2 samples.

Results

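The interferon-stimulated effector genes are the products that carry out the interferon response inside a cell. Here they are a fixed list of 52 mouse genes, picked by symbol from 6 kinds of effector: the OAS, IFIT, p200 and PARP families, the interferon-induced GTPases, and other effectors. All 52 were found among the 16614 genes listed in the deposited files. Bone marrow of C57BL/6 mice was flushed from the long bones of the hind leg and grown with M-CSF, the macrophage growth factor, for 3 days, and the macrophages were then given RANKL, the cytokine that drives osteoclast formation, for 2 days. Poly-A RNA was sequenced in 1 wild-type (WT) library and 1 Foxo3 knockout (KO) library, both RANKL-treated, with no library without RANKL. The labels give neither the knockout allele, a Cre driver, the age or sex of the mice, nor whether animals were pooled. The series asked how the transcription factor FoxO3, and its isoform2 in particular, restrains osteoclasts; gene values do not separate isoforms.

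As background, interferons bind receptors on the cell surface, JAK kinases at the receptor start a signal that reaches the nucleus, and there a complex that includes IRF9 binds a promoter element called the ISRE, which switches on the effector genes. Interferon gamma works mainly through another element, the GAS. In osteoclast precursors RANKL itself induces interferon beta through c-Fos, and the interferon made in this way restrains osteoclast formation.

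Foxo3 stood at 10.3 FPKM in WT cells but 0.548 FPKM in KO cells, 5.33% of the former, so the library labels held for the targeted gene. FPKM counts fragments per kilobase of a transcript, adjusted for how deeply a library was sequenced, so levels of different genes can be compared. Wherever a pair of FPKM values follows, the WT library comes first and the KO library after it, and the number in parentheses is the log2 ratio defined below. About 26100000 WT and 36900000 KO reads were estimated from the value of 1 read in genes of few reads. Each group has 1 library, so no value below has a replicate error, no test between genotypes is possible, and each difference describes these 2 libraries.

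Promoter sequences are shown first for 8 of the genes, chosen after their values were seen: Isg15 and Gbp7 stood high in the KO library, Oas3, Slfn8 and Trim30a stood low, Ifit1 was level, and Oas1a and Oas1g are near copies of each other. Each stretch of 80 bases comes from the RefSeq promoter table on GRCm38.p6, 5′ to 3′ on the strand of the gene, with the core of the ISRE in capitals. Slfn8 and Trim30a have 2 start sites each in that table, and the one of lower coordinate is shown. For Slfn8 the same core lies near both starts. For Trim30a the start shown lies inside the gene, and the window at its outer start, chr7:104465144-104465443, also holds a core. The core searched was GAAA, any 2 bases and GAAA, on both strands, and cores may overlap.
Isg15, chr4:156200846-156200925, minus strand: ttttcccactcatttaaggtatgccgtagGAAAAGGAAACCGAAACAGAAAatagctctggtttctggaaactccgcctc
Gbp7, chr3:142530248-142530327, plus strand: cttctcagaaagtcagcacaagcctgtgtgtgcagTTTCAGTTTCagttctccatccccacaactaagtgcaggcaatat
Ifit1, chr19:34640759-34640838, plus strand: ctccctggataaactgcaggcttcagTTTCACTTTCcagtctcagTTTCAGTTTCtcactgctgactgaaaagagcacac
Oas1a, chr5:120907498-120907577, minus strand: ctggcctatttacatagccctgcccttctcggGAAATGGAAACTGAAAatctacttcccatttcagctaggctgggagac
Oas1g, chr5:120887584-120887663, minus strand: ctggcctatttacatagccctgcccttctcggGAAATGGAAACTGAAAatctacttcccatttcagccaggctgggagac
Oas3, chr5:120777690-120777769, minus strand: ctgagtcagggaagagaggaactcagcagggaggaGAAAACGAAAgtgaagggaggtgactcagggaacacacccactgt
Slfn8, chr11:83020814-83020893, minus strand: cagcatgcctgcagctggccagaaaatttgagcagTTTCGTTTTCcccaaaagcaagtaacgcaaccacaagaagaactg
Trim30a, chr7:104446079-104446158, minus strand: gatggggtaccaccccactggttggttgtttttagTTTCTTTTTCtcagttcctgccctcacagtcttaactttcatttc

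The promoter of Isg15 holds 3 overlapping cores, and those of Oas1a and Oas1g hold the same overlapping pair. Promoter windows of 250 bases before to 50 bases after a start were matched for 39 of the 52 genes. At least 1 ISRE core lay in the windows of 21 of the 39, and 3.99% of 27025 genes in the table have one. The core of the GAS (TTC, any 3 bases, GAA) lay in the windows of 9 of the 39, beside 9.55% of all genes, and the FoxO core GTAAACA in those of 2, Gbp3 and Rsad2, beside 4.05%. Only 75.0% of the genes had a window, under the 80% needed, so any check of these motifs over the whole list is void. No window was matched for Oas2, Ifi204, Parp9, Parp14, Mx1, Mx2, Usp18, Dhx58, Zbp1, Rtp4, Ifi27l2a, Ly6e or Tor3a.

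Levels spanned from under 1 FPKM to nearly 300 FPKM. Ly6e, a small membrane-anchored protein that restricts some viruses, led in both libraries. Ifi27l2a and Bst2 (tetherin, which holds budding virus at the cell surface) came next, and these 3 genes made up 50.8% (WT) and 50.3% (KO) of the summed FPKM of the list. The sum was 1275 and 1153 FPKM, so the KO sum was 90.4% of the WT sum, and without these 3 genes the KO sum was 91.4% of the WT sum. At the other end Ifi205 stood at 0.496 and 0.668 FPKM, the 1 gene below 1 FPKM in both libraries. The other 51 reached 1 FPKM in at least 1 library and are called measured, and Mx2 was measured through the WT library alone.

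**Figure D1:**
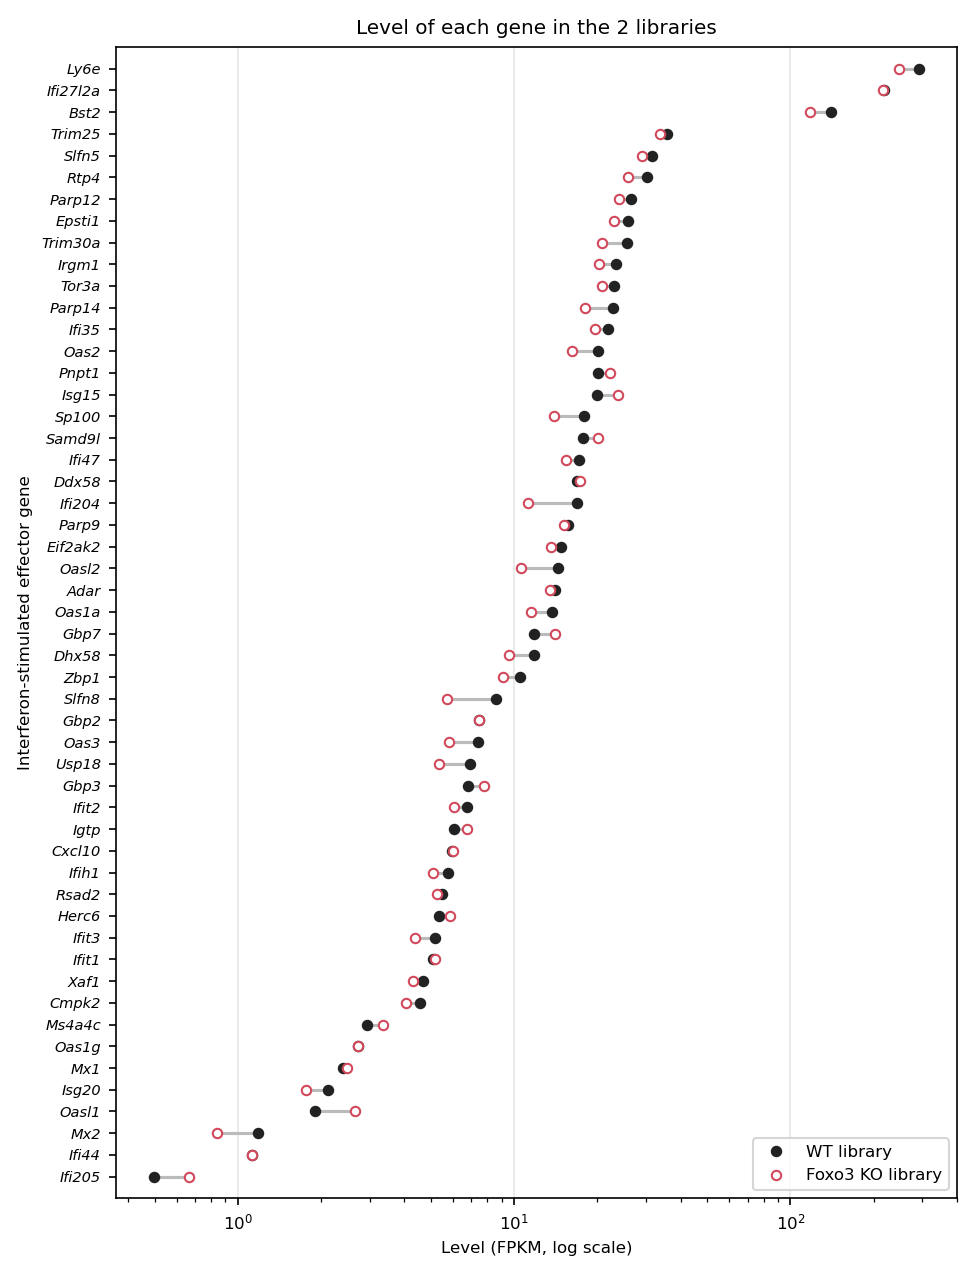
Level of each of the 52 genes in the WT (filled) and KO (open) library, in FPKM on a log axis, ordered by the WT level. The 2 values of a gene lie close beside the span between genes, and the open point is to the left for 37 of the 52.

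The genes were more often lower than higher in the KO library, each by a small amount. The difference is given throughout as the log2 ratio, log2(KO + 1) minus log2(WT + 1), which understates differences of genes of low FPKM. It was below 0 for 37 of the 52 genes and above 0 for 15, with a median of -0.13. Of the 51 measured genes 72.5% were lower, and of all 10003 measured genes 42.4% were, with a median of 0.03. At least 2-fold, the rule of size fixed for a call, was reached by 0 of the 51 and by 0.32% of all measured genes. At 1.2-fold, 10 of the 51 were lower (19.6%) beside 6.23% of all, and 1, Oasl1, was higher beside 4.93%. The list therefore differed from the run of genes in direction and not through large single differences. It was chosen with earlier results of these data known, and some of its genes share sequence. Its genes are not independent observations, so these shares only describe the 2 libraries.

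**Figure D2:**
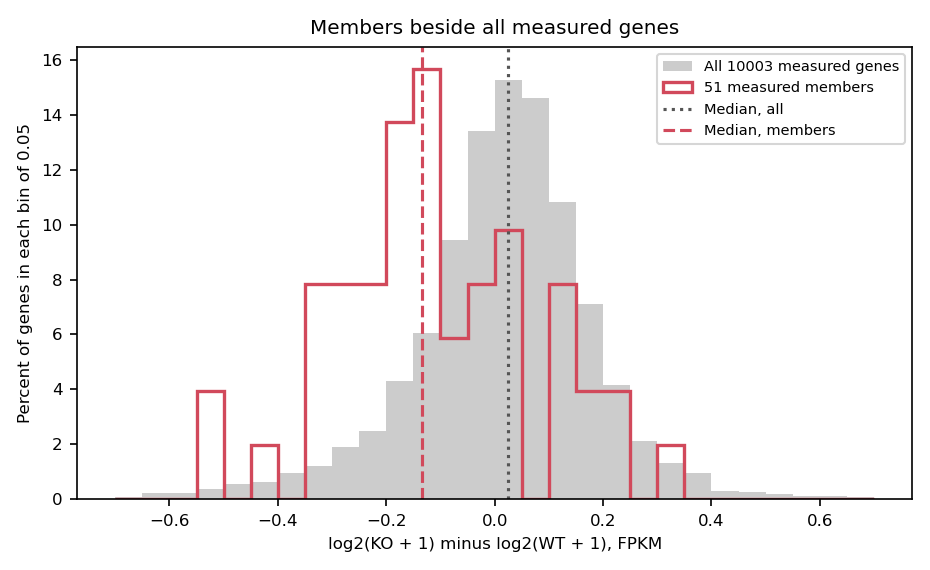
Log2 ratio of the 51 measured genes of the list (red outline) beside all 10003 measured genes (grey), as percent of genes in bins of 0.05; genes beyond 0.7 in either direction are not drawn. The red median lies at -0.13 and the grey one at 0.03.

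With no replicate, each gene was set against the scatter of other genes of its level, which holds differences between genotypes and cultures as well as measurement error. Each gene was set beside the 500 measured genes nearest to it in mean level, and called below or above the band when it lay outside the middle 90% of their log2 ratios. Below the band were 10 of the 51 genes (19.6%), beside 5.33% of all measured genes: Ifi204, Slfn8, Oasl2, Sp100, Usp18, Parp14, Oas2, Oas3, Trim30a and Bst2. Above it were 2 (3.92%), Isg15 and Gbp7, which is close to the 5.20% of all genes and no excess. Bst2 (-0.25), Isg15 (0.24) and Gbp7 (0.24) lay just outside the bounds, and Dhx58 (-0.27), Ly6e (-0.24), Rtp4 (-0.22) and Oasl1 (0.33) just inside. With the middle 95% as the band, 5 were below, namely Ifi204, Oas2, Oasl2, Slfn8 and Sp100, and 0 above.

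**Figure D3:**
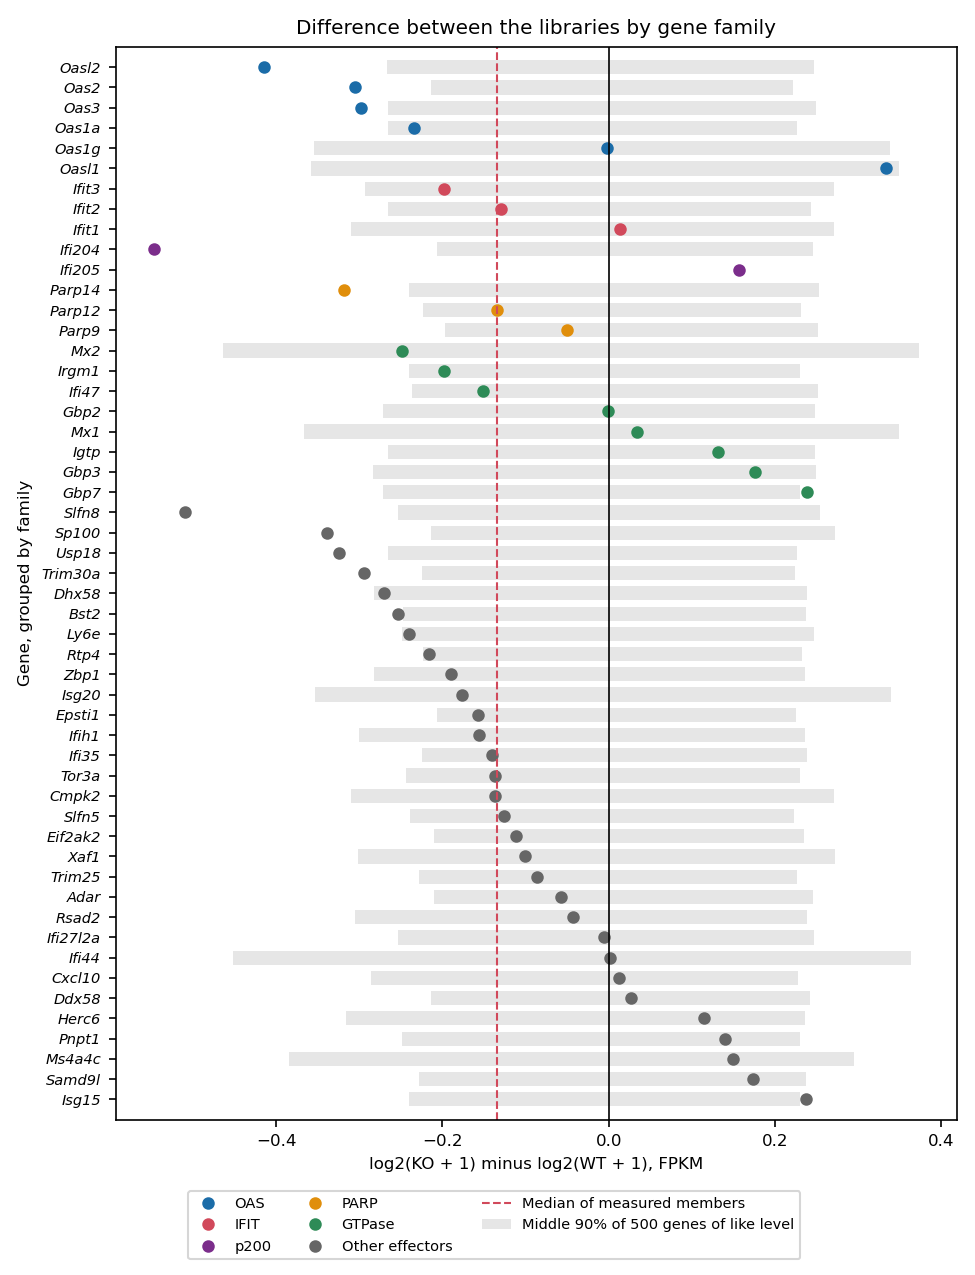
Log2 ratio of each gene (points, coloured by family) over the band that holds the middle 90% of the 500 genes nearest in level (grey bars; Ifi205, not measured, has none). Points left of their bar include 3 of the OAS family and Ifi204, while the GTPases lie on both sides of 0.

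The same direction appeared in macrophage genes. Of 18 macrophage markers in the files 17 were lower in the KO library, beside 42.4% of all measured genes. Below their bands were 9 of them, beside 5.33% of all measured genes. The summed level of the 18 went from 12127 to 9846 FPKM, with 0 markers listed at 0. The log2 ratios of the 18 had a median of -0.24 and ran from -1.38 (Cd36, at 84.7 and 31.9 FPKM) to 0.02. Lyz2 held most of the sums, at 7501 and 5674 FPKM, while Csf1r (-0.01) and Cd68 (-0.03) were nearly level. These genes were named after their values were seen. Of 13 osteoclast markers 10 were higher, beside 5763 of all 10003 measured genes. Of these markers 1 was above and 1 below its band, beside 5.20% and 5.33% of all measured genes. Their sums of 21856 and 24582 FPKM came mostly from Acp5, Ctsk and Mmp9. The part of either marker list in the lower interferon-stimulated genes was not tested. In bulk RNA fewer cells of a type and less RNA per cell cannot be told apart. Plasmacytoid dendritic cells are a strong source of interferon, and of their 8 markers in the files 3 were lower and 5 higher, with sums of 13.6 and 12.6 FPKM. The 3 that reached 1 FPKM were Tcf4 at 9.41 and 7.31 FPKM, below its band, Spib at 2.18 and 2.79 FPKM, and Cox6a2 at 1.63 and 1.92 FPKM. The defining Siglech stood at 0.116 and 0.0478 FPKM, Ly6d at 0 and 0.0483 FPKM and Klk1 at 0 and 0.0361 FPKM; these markers were named after their values were seen. Sums of other marker lists were 159.7 and 155.7 FPKM for neutrophils, 8.23 and 7.76 FPKM for stromal cells and 55.9 and 26.4 FPKM for erythroid cells and megakaryocytes. None of the 12 T, B and NK cell markers reached 1 FPKM, and their sums were 1.16 and 1.36 FPKM.

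The OAS family makes short oligoadenylate chains when it meets double-stranded RNA, which switch on the RNA-cutting enzyme RNase L. Of its 6 genes 5 were lower in the KO library, with a median log2 ratio of -0.27, and 3 were below the band. Oas2 stood at 20.2 and 16.2 FPKM (-0.31), and Oas3 at 7.40 and 5.83 FPKM (-0.30). Oasl2, an OAS-like protein with ubiquitin-like domains, had the lowest ratio of the family at -0.41, with 14.4 and 10.6 FPKM. Its neighbour Oasl1 went the other way, at 1.91 and 2.66 FPKM, the highest log2 ratio of the list (0.33) though within its band, and it rests on about 107 and 212 reads.

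Oas1a stood at 13.7 and 11.5 FPKM (-0.23), and Oas1g at 2.72 and 2.71 FPKM. These levels are uncertain, because 57.6% of the 50-base words in the transcripts of Oas1a and 45.7% of those of Oas1g also occur in other genes. The pair summed to 16.4 and 14.2 FPKM. All 6 genes lie on chromosome 5, Oas2, Oas3, Oas1g and Oas1a between 120730333 and 120907521 and the OAS-like pair between 114896936 and 114937915 (mm10). Genes of the first stretch had log2 ratios from -0.31 to 0.00, and the 2 OAS-like neighbours pointed in opposite directions.

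IFIT proteins bind foreign RNA ends and block its translation, and all 3 genes lay within their bands. Ifit1 was level, at 5.10 and 5.15 FPKM. Ifit2 stood at 6.72 and 6.06 FPKM (-0.13) and Ifit3 at 5.18 and 4.39 FPKM (-0.20). Ifit3 shares 51.2% of its 50-base words with other genes, chiefly its copy Ifit3b, a symbol not found among the genes listed for these libraries. The log2 ratio of Ifit1, 0.01, turned to -0.01 under either scaling between libraries, as did those of Cxcl10 and Ifi44.

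The p200 family binds DNA, and Ifi204 had the lowest log2 ratio of the whole list. Ifi204 lies on chromosome 1 from 173747293 to 173766943 (mm10). Its level was 16.9 and 11.2 FPKM, leaving 66.6% in the KO library (-0.55). Only 0.600% of the 500 genes of like level had a lower ratio. Its estimated reads, about 1012 and 952, make the counting interval of log2(KO/WT) run from -0.71 to -0.46. It shares 20.0% of its 50-base words with other genes of the family, among them Mndal, which stood at 15.2 and 12.3 FPKM. Ifi203, not among the genes that share 50 or more of these words, stood at 15.1 and 12.1 FPKM, and both were below their bands. Pyhin1, a further relative named after its values were seen, stood at 5.34 and 3.12 FPKM, also below, while Aim2, likewise named afterwards, stood at 8.99 and 9.17 FPKM. Of the 6 measured p200 relatives 4 were lower and 3 below their bands. The part of shared reads in the values of Ifi204 and Mndal was not tested.

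The 3 PARP genes, enzymes that attach ADP-ribose to proteins, were all lower. Parp14 was below its band, at 22.7 and 18.0 FPKM (-0.32), and with about 4395 and 4931 reads it is among the most finely measured genes of the list. Parp12 stood at 26.4 and 23.9 FPKM (-0.13), and Parp9, whose exons overlap those of its partner Dtx3l, at 15.7 and 15.1 FPKM (-0.05). Among relatives outside the list Parp10 stood at 13.5 and 14.2 FPKM and Zc3hav1 at 27.4 and 26.7 FPKM, both within their bands.

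The GTPases did not share a direction. Of the 8 genes 4 were lower and 4 higher, with a median log2 ratio of 0.02 that became -0.005 under trimmed-mean scaling and -0.009 after centring on the median gene. The guanylate-binding genes of chromosome 3, which coat and break open vacuoles of intracellular microbes, were level or higher: Gbp2 stood at 7.46 FPKM in both libraries, Gbp3 at 6.78 and 7.79 FPKM (0.18), and Gbp7 at 11.8 and 14.1 FPKM (0.24), above its band. Gbp3 and Gbp7 share some sequence, and the exons of Gbp7 also overlap the model Gm43802. The immunity-related GTPases of chromosome 11, which act on the same vacuoles, were split. Irgm1 stood at 23.4 and 20.3 FPKM (-0.20), Ifi47 at 17.2 and 15.4 FPKM (-0.15) and Igtp at 6.06 and 6.74 FPKM (0.13).

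The exons of Igtp overlap those of Irgm2, a relative named after its values were seen, which stood at 9.18 and 6.96 FPKM. The pair summed to 15.2 and 13.7 FPKM, and how the counting divided reads of the overlap was not tested. Irgm2 was below its band, and it was the 1 lower gene of the 5 measured GTPase relatives outside the list. The other 4 were higher, 2 of them above their bands, and the median levels of the 5 were 2.155 and 2.817 FPKM. Ifi47 overlaps Olfr56. Mx1, the dynamin-like GTPase against influenza virus, stood at 2.41 and 2.49 FPKM (0.03), and as background C57BL/6 mice carry a deletion in its coding exons. Mx2 stood at 1.19 and 0.841 FPKM (-0.25) on about 75 reads in each library. Mx2 and Ifi44 lie at the lower edge of the measured genes, where the minimum of 1 FPKM itself shapes the band.

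The ISG15 system, which tags proteins with the ubiquitin-like ISG15, held genes on both sides of their bands. Isg15 stood at 20.0 and 23.7 FPKM (0.24, above its band). Usp18, the protease that removes ISG15 and also damps the interferon receptor, stood at 6.94 and 5.35 FPKM (-0.32, below its band). Herc6, the ligase that attaches ISG15 in mice, stood at 5.33 and 5.85 FPKM (0.11). Outside the list, the conjugating enzyme gene Ube2l6 stood at 93.7 and 112.8 FPKM, above its band. Isg15 and Usp18, each carrying about 200 reads or more per library, thus differed in opposite directions.

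Among sensors of nucleic acid and enzymes that act on double-stranded RNA, 0 of 7 left their bands and 5 were lower. Ddx58, the sensor RIG-I, stood at 17.0 and 17.3 FPKM (0.03). The related sensor Ifih1 stood at 5.78 and 5.08 FPKM (-0.16) and their modulator Dhx58 at 11.8 and 9.58 FPKM (-0.27). The kinase Eif2ak2, which stops translation, stood at 14.8 and 13.6 FPKM (-0.11), and Adar, which edits double-stranded RNA, at 14.1 and 13.5 FPKM (-0.06). Zbp1, a sensor that starts necroptosis, stood at 10.5 and 9.11 FPKM (-0.19), and Pnpt1, a mitochondrial RNA-degrading enzyme, at 20.2 and 22.3 FPKM (0.14).

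The TRIM and nuclear body genes were all lower, and 2 of 3 lay below their bands. Sp100, a scaffold of nuclear bodies that silence viral genomes, stood at 17.9 and 14.0 FPKM (-0.34). Trim30a stood at 25.6 and 20.7 FPKM (-0.29), and Trim25, a ligase that acts on RIG-I, at 35.9 and 33.7 FPKM (-0.09). The relatives Trim12c, at 11.7 and 12.4 FPKM, and Sp110, at 13.4 and 12.7 FPKM, lay within theirs.

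The remaining 17 effectors included 13 lower genes, of which 2 were below their bands. Slfn8, of the Schlafen family of RNA-cutting and growth-controlling proteins, stood at 8.59 and 5.73 FPKM, leaving 66.8% in the KO library (-0.51), and shares 14.6% of its 50-base words with other genes, among them Slfn9. Slfn5, its neighbour on chromosome 11, stood at 31.6 and 28.9 FPKM (-0.13) and the relative Slfn2 at 102.1 and 94.6 FPKM. Bst2 stood at 139.9 and 117.2 FPKM (-0.25). The 2 genes with the highest levels differed from each other: Ly6e stood at 291.2 and 246.3 FPKM (-0.24), at the edge of its band, and Ifi27l2a at 217.2 and 216.4 FPKM (-0.01).

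Enzymes that attack viral RNA or nucleotide supply lay within their bands. Rsad2 (viperin), which makes a chain-terminating nucleotide, stood at 5.47 and 5.28 FPKM (-0.04), and Cmpk2, a nucleotide kinase gene beside it on chromosome 12, at 4.55 and 4.05 FPKM (-0.14). The exonuclease gene Isg20 stood at 2.12 and 1.76 FPKM (-0.18) on about 47 and 55 reads. Cxcl10, the chemokine that draws T cells, was level at 5.95 and 6.01 FPKM, and its exons overlap those of Art3. Samd9l, a restrictor of translation, stood at 17.8 and 20.1 FPKM (0.17), and Ms4a4c at 2.94 and 3.37 FPKM (0.15).

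The other 6 genes of this set lay within their bands. Rtp4 stood at 30.3 and 25.9 FPKM (-0.22), Epsti1 at 25.8 and 23.0 FPKM (-0.16), and Ifi35 at 21.8 and 19.7 FPKM (-0.14). Tor3a, of the torsin ATPase family, stood at 23.0 and 20.8 FPKM (-0.14), the apoptosis factor gene Xaf1 at 4.69 and 4.31 FPKM (-0.10), and Ifi44 at 1.13 FPKM in both. Ms4a6b, Ms4a6c and Ms4a6d, relatives of Ms4a4c, stood at 35.5 and 33.7, 95.6 and 92.4, and 77.8 and 59.5 FPKM, and the last was below its band.

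Reads limit what these 2 libraries can tell apart. An interval of log2(KO/WT), without pseudocount, was formed at 95% from reads estimated as FPKM times transcript length over the value of 1 read. It covers counting error only and leaves out the variation between cultures. It lay wholly below 0 for 26 of the 51 genes (51.0%), beside 16.2% of all measured genes with a known length, and wholly above 0 for 5 (9.80%), beside 23.5%. For the other 20 the 2 libraries were not distinguishable at this depth. The 5 were Oasl1, Gbp7, Isg15, Samd9l and Pnpt1. Since the interval excluded 0 for 39.7% of all measured genes with a known length, the scatter between the libraries exceeded counting error.

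**Figure D4:**
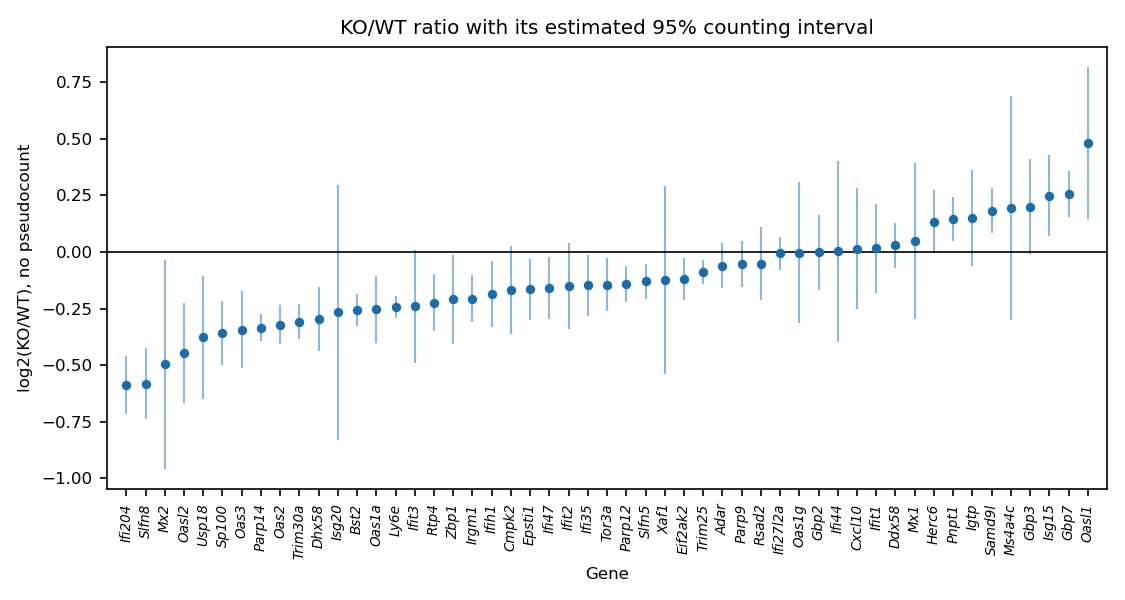
Log2(KO/WT) without pseudocount for the 51 measured genes, ordered by value, with the estimated 95% counting interval as bars. The interval is widest for Isg20, Ms4a4c and Mx2, genes of under 100 reads in each library.

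The list was split by mean level. Among the 28 genes with a mean of 10 FPKM or more 23 were lower, with a median log2 ratio of -0.15, beside 38.0% lower and a median of 0.04 for all genes of that level. Among the 23 measured genes below it 14 were lower with a median of -0.04, beside 49.0% and 0.00 for all genes there. In both ranges the list lay below the run of genes, by more in the upper one.

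Upstream, the interferon genes looked up were not seen: Ifnb1, Ifna1, Ifna2, Ifna4 and Ifng were listed at 0 in both libraries and are named after these values were seen. Other interferon genes were not looked up, and both libraries come from 1 time, after 2 days of RANKL. Of the 28 measured pathway genes outside the list 17 were lower (60.7%), beside 42.4% of all measured genes, and 11 were higher. Their median log2 ratio was -0.03, beside 0.03 for all measured genes. Below the band were 3 and above it 1, beside 5.33% and 5.20% of all measured genes. Of the receptors, Ifnar1 stood at 34.3 and 31.0 FPKM (-0.14), Ifngr1 at 75.3 and 68.7 FPKM (-0.13) and Ifngr2 at 105.0 and 116.5 FPKM (0.15), all within their bands. Stat2, a transcription factor that acts at the ISRE, stood at 13.2 and 11.1 FPKM (-0.23). The transcription factors Irf8, at 29.0 and 20.3 FPKM (-0.49), and Irf1, at 31.0 and 38.0 FPKM (0.29), left their bands on opposite sides. Of the sensing genes, the endosomal RNA receptor Tlr7 stood at 41.4 and 28.6 FPKM (-0.52) and the kinase Ikbke at 14.8 and 10.8 FPKM (-0.43), both below, and the adaptor Mavs at 28.8 and 32.7 FPKM (0.18).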

How the data were processed

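Gene values of 1 WT and 1 Foxo3 KO library were used as deposited and read as FPKM from the values, since no header or label names the unit; the authors appear to have added 0.000001 to each, which was subtracted. Per the submitters' processing notes, TopHat, edgeR and mm10 were used, with no role or version. What quantifier, annotation, filters and strand setting they applied was not given in the sources used here. No count model fits FPKM, so the counts allowed for when the rules were set out did not apply.

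The members, lists and rules were chosen with earlier results of these data known. The rule for names takes every member, Foxo3, the 3 measured genes of each pathway list with the largest absolute log2 ratio, and relatives of 10 FPKM or more; other genes given with values are said to have been named after these were seen, and near copies and overlapping genes are named without values. A gene was measured at 1 FPKM in at least 1 library. Trimmed-mean scaling dropped 30% of log ratios and 5% of mean levels from each end. The value of 1 read came from the densest window of FPKM times length among genes of 1 transcript and at least 2000 bases. By it the KO library was 1.41 times deeper, and ratios of 1661 genes under 0.15 FPKM gave 1.40. Coordinates, lengths (median of the coding transcripts), exon overlaps without regard to strand and shared 50-base words come from GENCODE M21 on mm10. The band, the 2-fold rule and the trimmed-mean scaling were tested on simulated data, and the other steps were not. The changes put into these data were 1.5-fold or more, which 0 genes of the list reached by the log2 ratio. Recovery of smaller differences was therefore not tested. Python 3.11.15, numpy 2.4.6, pandas 2.3.3 and matplotlib 3.10.9 were used.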

Additional observations from a re-analysis of the deposited data

How the results depend on the processing

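Trimmed-mean scaling divides the KO values by 1.02, and centring subtracts the median of all genes, 0.03, from each log2 ratio; each gave 40 lower and 11 higher of the 51 measured genes. Under trimmed-mean scaling the GTPase median turned to -0.0047, and to -0.0089 after centring on the median gene. A pseudocount of 5 gave medians of -0.0839 for the list, -0.0839 for the IFIT, 0.0075 for the GTPase and -0.0831 for the other effectors, which follows from the pseudocount. A minimum of 10 FPKM left 24 lower and 5 higher genes, since fewer were tested. Without the 18 genes whose exons overlap another gene 8 were higher and 25 lower, and without the 10 with near copies 11 and 31. The 1.2-fold rule took 11 genes in place of 0, and 1.5-fold took 0. With 1000 nearest genes 1 gene, Isg15, was above the band and Gbp7 no longer was, and the middle 95% left 5 below and 0 above. Of the 10 genes below the band, 4 (Ifi204, Oas2, Oasl2 and Sp100) were below it in every alternative for the band, and Slfn8 in every one that tested it, since it lies under the minimum of 10 FPKM. Of 204 recomputed log2 ratios of single genes 0 moved by more than the distance from the middle of their band to its edge, and 3 genes (Ifit1, Ifi44 and Cxcl10, at 0.0139, 0.0018 and 0.012) changed sign under either scaling. Using the longest transcript as the length, added after the data were seen like the counting interval itself, put 27 intervals below 0 and 6 above. No paired analysis was possible because WT and KO have only 1 library apiece, so none could be left out either. Genes of few reads are limited most by depth.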
